A study of Mus musculus with 6 samples.

Results

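Interferon-stimulated genes are the genes that a cell switches on when it senses type I interferon. A list of 39 of them, out of the 24421 genes in the table, was followed through RNA-seq libraries of blood endothelial cells (BECs) and lymphatic endothelial cells (LECs) in which the histone methyltransferase gene Dot1l had been deleted or overexpressed. The list was chosen by gene function, with earlier results of these data known. It holds 5 sensors of foreign nucleic acid (Ddx58, Ifih1, Dhx58, Zbp1 and Eif2ak2), 3 transcription factors (Irf7, Irf9 and Stat2) and 31 effectors. The Oas family, which also belongs to this response, was not analysed here. All 39 genes were found in the table by symbol.

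Type I interferons are secreted proteins, among them interferon beta (Ifnb1) and the interferon alphas, that bind the receptor pair Ifnar1 and Ifnar2. The receptor activates the kinases Jak1 and Tyk2, which phosphorylate Stat2. Stat2 joins Irf9 in a complex that enters the nucleus and binds a DNA element, the interferon-stimulated response element, in front of the target genes. Irf7 is itself a target and in turn drives interferon genes, which makes the response a loop. Many of the target genes encode proteins that block virus replication.

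The libraries labelled Cont BECs and cKO BECs came from skin of E15.5 embryos that were Tie2-Cre(-) or Tie2-Cre(+), respectively. Both carried the conditional Dot1l 2f/2f alleles, and cells negative for F4/80, CD45 and Lyve1 were taken. A figure caption of the paper also names CD31 as a positive marker of this isolation. The Tie2 promoter that drives Cre is active in endothelial cells and also in blood cell lineages. The other 4 libraries came from cultured cells, an embryonic yolk sac BEC line (CRL-2581) and embryonic dermal LECs (C57-6064L). For overexpression (OE) the cells received a lentivirus with dead Cas9 fused to the activator VP64, guide RNAs against the Dot1l promoter and EGFP. Their controls (Cont BECs and Cont LECs in culture) received an empty lentivirus, and the sources used here do not say whether it carried dCas9-VP64. EGFP(+) cells were sorted in both cases. Several embryos or flasks were pooled for each library, and each condition had 1 library. No difference could therefore be set against a spread between replicates, no test of a condition was possible, and every ratio given here describes 2 libraries.

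The libraries held 8863349 to 31032461 counted reads. The count of Dot1l was 762 reads in Cont BECs against 944 in cKO BECs from skin, a log2 ratio of -0.07 with a 95% counting interval of -0.21 to 0.07. This count covers the whole gene, so it does not check a deletion of part of it, and the library labelled cKO is named by its label. The paper reports RT-qPCR of Dot1l as its own check of the deletion and of the overexpression. In cultured BECs Dot1l had 4208 reads with OE against 1972 without (log2 ratio 1.48, interval 1.40 to 1.55). In LECs it had 6720 against 2490 (log2 ratio 1.20, interval 1.13 to 1.27). Log2 ratios are of counts normalized by the median of ratios within each pair. Intervals are exact (Clopper-Pearson), treat each read as independent and cover counting error only. Reads copied by PCR carry no molecular identifier and cannot be told from independent molecules, so the intervals may be too narrow even for counting error. Of the lymphatic markers, Prox1, the defining transcription factor of LECs, had 0 reads in all 4 cultured libraries, both LEC libraries included, and Pdpn had 0 reads in both LEC libraries. The skin cells, labelled BECs and taken as Lyve1-negative, held all 6 lymphatic markers listed, with sums of 2788 and 3246 counts per 1000000 reads (CPM) in Cont and cKO, so their label and these markers disagree. Prox1 stood at 147 and 79.7 CPM in this pair (log2 ratio -0.94), Lyve1 at 1027 and 1801 (0.75) and Pdpn at 18.8 and 41.2 (1.07). The rest of the 6 were lower in cKO: Flt4 at 294 and 237 CPM (-0.37), Reln at 465 and 265 (-0.87) and Mmrn1 at 835 and 822 (-0.08). Lyve1 stood at 604 CPM in cultured Cont BECs, below the skin libraries, and at 1998 CPM in Cont LECs. The genes listed as blood endothelial markers (Pecam1, Cdh5, Kdr, Flt1, Tek, Tie1, Emcn and Erg) were detected in every library, 8 of 8. The LEC libraries are included, so detection of these genes does not tell BECs from LECs here. The cells are called by their labels below.

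A gene was called up- or downregulated by the cutoff of the study's methods. The higher normalized count had to reach 5 in the skin pair or 3 in the culture pairs and be more than 3 times the lower one. By this cutoff 8 of the 39 interferon-stimulated genes were upregulated and 0 downregulated in OE-LECs, where 2.38% of the 16160 genes with a read were called up and 1.79% down. In OE-BECs 1 was upregulated and 3 were downregulated, where 7.05% of 16820 genes were called up and 4.63% down. In the library labelled cKO 0 were upregulated and 1 was downregulated, where 4.4% of 18784 genes were called up and 2.05% down. The median log2 ratio of the list, with 1 added to each normalized count, was 1.02 in OE-LECs, -0.12 in OE-BECs and -0.14 in the library labelled cKO, and the medians of all genes were 0.01, 0.02 and 0.01. The 8 genes upregulated in OE-LECs each had over 100 normalized counts there. Among all genes that reached 100 normalized counts in a pair, 0.59% were up and 0.238% down by 3-fold in OE-LECs, 0.527% and 1.55% in OE-BECs, and 1.19% and 0.509% in the skin pair. With genes at 0 reads in 1 library set at their bound and those under the floor in both left out, the medians of the list were 1.02, -0.13 and -0.14.

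**Figure D1:**
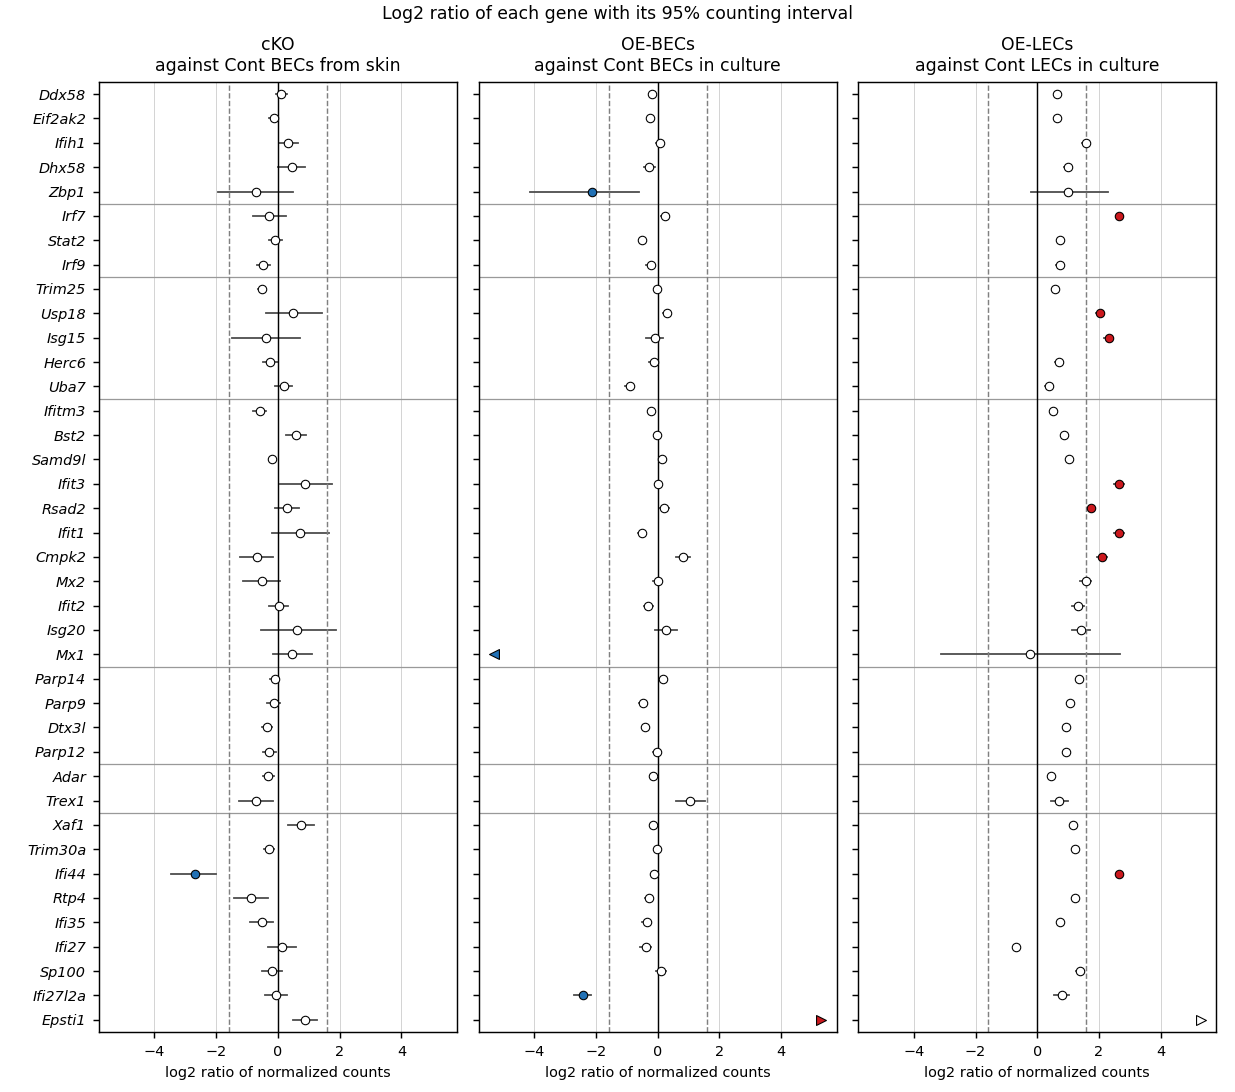
Log2 ratio of each of the 39 interferon-stimulated genes in the 3 comparisons, with 95% counting intervals as bars and dashed lines at 3-fold. Filled points are genes called by the cutoff and arrows mark genes with 0 reads in 1 library. In OE-LECs 37 of the 39 genes lie above 0, with 8 filled points past the upper dashed line. Epsti1, with 0 and 3 reads and not called, is also drawn past that line, as an open arrow.

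Shown here are the 5′ flanks of 5 interferon-stimulated genes that hold GAAANNGAAA, a core pattern of the response element, on either strand. The flanks of 2 genes without this exact pattern are shown beside them. Other spacings of the repeat were not searched. The results below turn on these genes. Each stretch is the 160 bases before the annotated start, from RefSeq (GRCm38.p6), written 5′ to 3′ on the strand of the gene. For Ifit1, Irf7 and Ifi44 the stretch lies partly inside the gene as GENCODE places it. Capitals mark matches to GAAANNGAAA or to its reverse complement TTTCNNTTTC.
Isg15 (chr4:156200819-156200978, minus strand): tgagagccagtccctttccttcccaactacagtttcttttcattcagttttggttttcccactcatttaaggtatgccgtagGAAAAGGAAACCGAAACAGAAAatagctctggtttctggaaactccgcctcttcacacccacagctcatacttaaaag
Ifit1 (chr19:34640729-34640888, plus strand): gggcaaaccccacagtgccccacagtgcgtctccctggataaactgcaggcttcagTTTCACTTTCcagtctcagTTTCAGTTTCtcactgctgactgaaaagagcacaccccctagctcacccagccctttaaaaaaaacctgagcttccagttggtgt
Ifit3 (chr19:34583369-34583528, plus strand): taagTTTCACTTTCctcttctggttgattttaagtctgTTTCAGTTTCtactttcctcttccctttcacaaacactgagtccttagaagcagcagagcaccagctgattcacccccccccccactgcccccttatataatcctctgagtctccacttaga
Rsad2 (chr12:26456453-26456612, minus strand): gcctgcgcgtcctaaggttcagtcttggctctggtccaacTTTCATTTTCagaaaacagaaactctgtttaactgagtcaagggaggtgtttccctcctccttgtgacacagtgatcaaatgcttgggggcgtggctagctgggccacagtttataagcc
Bst2 (chr8:71537473-71537632, minus strand): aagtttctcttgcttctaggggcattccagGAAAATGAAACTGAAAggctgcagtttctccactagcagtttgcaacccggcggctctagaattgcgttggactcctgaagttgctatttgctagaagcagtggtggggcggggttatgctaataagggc
Irf7 (chr7:141266425-141266584, minus strand): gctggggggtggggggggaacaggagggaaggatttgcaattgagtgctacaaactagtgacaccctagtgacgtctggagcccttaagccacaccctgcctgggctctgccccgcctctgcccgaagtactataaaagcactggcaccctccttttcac
Ifi44 (chr3:151749911-151750070, minus strand): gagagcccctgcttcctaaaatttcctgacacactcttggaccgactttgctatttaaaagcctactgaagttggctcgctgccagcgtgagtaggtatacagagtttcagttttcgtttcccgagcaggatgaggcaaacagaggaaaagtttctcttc

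Isg15 held 3 overlapping matches that start 78, 72 and 66 bases before the annotated start, and the 2 matches of Bst2 also overlapped. The 2 matches of Ifit1 and of Ifit3 were separate. A window from 250 bases before to 50 bases after the start was given for 29 of the 39 genes, in 38 windows. On either strand, GAAANNGAAA was present in 11 of these 29 genes (37.9%), namely Ddx58, Ifih1, Eif2ak2, Stat2, Isg15, Ifit1, Ifit3, Rsad2, Bst2, Ifitm3 and Trim30a. Of 27025 genes with a window, 3.99% held it, as did 3.44% of 32851 windows. It was present in 4 of the 7 genes with a window that were upregulated in OE-LECs and in 7 of the other 22. The motif TTCNNNGAA, the gamma-activated sequence, was present in 7 of the 29 genes (24.1%) and in 9.55% of all genes with a window. Irf7, Ifi44 and Cmpk2 were upregulated in OE-LECs and had no GAAANNGAAA in this window, which says only that these letters are not there.

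Irf7, which had the largest ratio in OE-LECs of the 39 genes, encodes a factor that drives interferon genes (chr7:141262706-141266481 in mm10). Its level was 29.3 CPM in Cont LECs against 183 CPM in OE-LECs, from 766 and 5679 reads, a 6.32-fold difference (log2 ratio 2.66, interval 2.55 to 2.77). In culture it stood at 62.7 CPM in Cont BECs against 72.0 CPM in OE-BECs, and in skin at 6.54 CPM in Cont BECs against 5.59 CPM in the library labelled cKO. The OE-LEC library was the highest of the 6 for Irf7 and both skin libraries were the lowest.

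The other transcription factors of the list, the partners Stat2 and Irf9, were higher in OE-LECs without reaching the cutoff. Stat2 had 2856 reads in Cont LECs against 5624 in OE-LECs (log2 ratio 0.75, interval 0.68 to 0.81), and 3796 in Cont BECs against 2047 in OE-BECs (-0.51, interval -0.59 to -0.43). Irf9 had 847 and 1646 reads in the LEC pair (0.73, interval 0.61 to 0.85) and 1023 and 669 in the BEC pair (-0.23, interval -0.37 to -0.09). In skin, Stat2 had 351 reads in Cont against 430 in the library labelled cKO (-0.09, interval -0.29 to 0.12), and Irf9 had 384 and 358 (-0.48, interval -0.69 to -0.27). Both factors were thus above their control in OE-LECs and below it in OE-BECs beyond counting error.

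The sensors had smaller ratios in OE-LECs than Irf7. Ifih1, the cytoplasmic sensor of long double-stranded RNA also known as MDA5, stood at 33.3 CPM in Cont LECs against 97.4 CPM in OE-LECs, a 2.96-fold difference (log2 ratio 1.57, interval 1.46 to 1.68). It stood at 70.8 and 71.9 CPM in cultured Cont BECs and OE-BECs, and at 17.7 and 23.3 CPM in Cont BECs and its cKO-labelled counterpart. Ifih1 was therefore just inside 3-fold in LECs and differed by no more than counting error between the cultured BEC libraries.

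Ddx58, which encodes RIG-I, the sensor of RNA with an uncapped end, had 3744 reads in Cont LECs against 6839 in OE-LECs (log2 ratio 0.64, interval 0.58 to 0.70), 3838 and 2612 in the cultured BEC pair (-0.17, interval -0.24 to -0.10) and 445 and 625 in the skin pair (0.11, interval -0.07 to 0.29). Dhx58, their regulatory relative LGP2, had 678 and 1595 reads in the LEC pair (1.0, interval 0.87 to 1.14), 681 and 434 in the cultured BEC pair (-0.27, interval -0.44 to -0.09) and 72 and 127 in the skin pair (0.44, interval 0.01 to 0.88). Eif2ak2, which encodes the RNA-activated kinase PKR, had 3415 and 6209 reads in the LEC pair (0.63, interval 0.57 to 0.69), 3701 and 2397 in the cultured BEC pair (-0.24, interval -0.32 to -0.17) and 856 and 1009 in the skin pair (-0.14, interval -0.27 to -0.01). These 3 sensors were higher in OE-LECs and lower in OE-BECs than in the matched control, each beyond counting error.

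Zbp1, a sensor of left-handed nucleic acid, was near the floor of 3 reads in some cultured libraries. It had 23 reads in Cont BECs against 4 in OE-BECs (log2 ratio -2.14, interval -4.13 to -0.59), a downregulated gene by the cutoff, and 9 and 21 in the LEC pair (0.99, interval -0.20 to 2.30). In skin it had 15 and 12 reads. A difference of Zbp1 in LECs was not detectable at this depth.

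The effectors held the other 7 genes upregulated in OE-LECs. Ifi44, an interferon-induced gene (chr3:151730922-151749960), stood at 32.5 CPM in Cont LECs against 202 CPM in OE-LECs (6.29-fold, log2 ratio 2.65, interval 2.55 to 2.76). It stood at 102 and 92.7 CPM in cultured Cont BECs and OE-BECs. In skin it had 100 reads in Cont BECs against 20 in the library labelled cKO (interval of the log2 ratio -3.47 to -2.00, value -2.70), the gene of the list downregulated there. Ifi44 was the gene of the list that passed the cutoff upward in one pair and downward in another.

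Ifit1 and Ifit3 encode tetratricopeptide proteins that bind foreign RNA or its partner proteins, and they lie with Ifit2 on chromosome 19 (Ifit1 chr19:34640871-34650009, Ifit3 chr19:34583531-34588731, mm10). Ifit1 stood at 12.9 CPM in Cont LECs against 79.3 CPM in OE-LECs (6.20-fold, log2 ratio 2.63, interval 2.47 to 2.80), and at 98.7 and 67.5 CPM in cultured Cont BECs and OE-BECs. Ifit3 stood at 14.9 and 91.2 CPM in the LEC pair (6.22-fold, log2 ratio 2.64, interval 2.48 to 2.79), and at 102 and 99.6 CPM in the cultured BEC pair. For both genes the OE-LEC level lay below that of cultured Cont BECs, and the Cont LEC library was the lowest of the 4 cultured libraries. In skin both were scarce, with 16 and 34 reads of Ifit1 and 18 and 43 reads of Ifit3 in Cont and the library labelled cKO. Ifit2 was at 11.98 CPM in Cont LECs against 29.3 CPM in OE-LECs (1.31, interval 1.12 to 1.50). Ifit3 shares reads with a near-identical copy, Ifit3b, so how reads were split between the 2 genes is uncertain, and Ifit3b had 167 reads in Cont LECs against 1195 in OE-LECs (2.61, interval 2.37 to 2.85).

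Isg15 encodes a small ubiquitin-like protein that is attached to other proteins during the response (chr4:156199424-156200818), and it had 454 reads in Cont LECs against 2639 in OE-LECs. Its level was 17.4 and 85.0 CPM in this pair (4.95-fold, log2 ratio 2.31, interval 2.16 to 2.46), 15.7 and 14.2 CPM in the cultured BEC pair, and 1.81 and 1.44 CPM in the skin pair. Usp18, the protease that removes Isg15 and also dampens signalling at the receptor (chr6:121245906-121270917), stood at 22.8 and 91.5 CPM in the LEC pair (4.06-fold, log2 ratio 2.02, interval 1.89 to 2.15), 72.7 and 87.1 CPM in the cultured BEC pair and 2.03 and 2.98 CPM in the skin pair. The gene for the tag and the gene for its removal were both upregulated in OE-LECs. The enzymes of Isg15 attachment differed less: the activating enzyme Uba7 had a log2 ratio of 0.36 (interval 0.23 to 0.49), the ligase Herc6 0.70 (interval 0.57 to 0.83) and the ligase Trim25 0.58 (interval 0.53 to 0.63).

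Rsad2 and Cmpk2 are neighbours on chromosome 12 (chr12:26442746-26456452 and chr12:26469204-26479837) that point away from each other. Rsad2 encodes viperin, which makes a chain-terminating nucleotide, and Cmpk2 encodes a nucleotide kinase. Rsad2 stood at 24.2 CPM in Cont LECs against 79.7 CPM in OE-LECs (3.33-fold, log2 ratio 1.74, interval 1.61 to 1.87), 35.0 and 39.3 CPM in the cultured BEC pair and 10.4 and 13.1 CPM in the skin pair. Cmpk2 stood at 14.0 and 59.5 CPM in the LEC pair (4.30-fold, log2 ratio 2.10, interval 1.94 to 2.27), 15.8 and 26.9 CPM in the cultured BEC pair (log2 ratio 0.81, interval 0.58 to 1.04) and 7.78 and 5.05 CPM in the skin pair. Both were higher in OE-LECs and in OE-BECs than in the matched control beyond counting error, Rsad2 in OE-BECs only narrowly (0.21, interval 0.04 to 0.38). Cmpk2 was lower in the library labelled cKO (-0.68, interval -1.21 to -0.15).

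**Figure D2:**
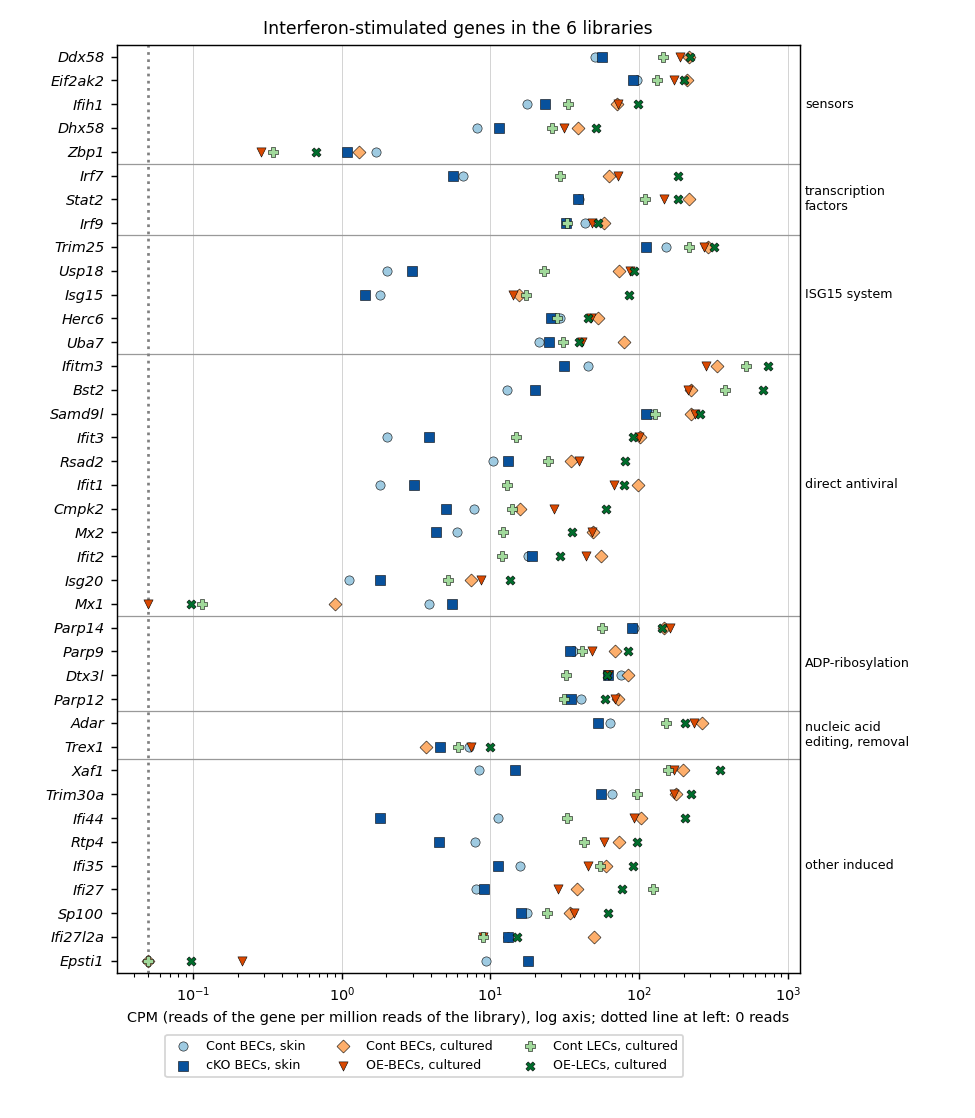
Level of each of the 39 interferon-stimulated genes in CPM, on a log scale, in the 6 libraries, 1 library per condition. The 28 genes that were higher in all 4 cultured libraries than in both skin libraries stand out from Mx1 and Epsti1, which were lower in all 4.

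Among the other effectors, the 3-fold line fell inside a continuous run of values. Mx2, an antiviral GTPase that the GENCODE annotation lists as a polymorphic pseudogene, was 2.96-fold higher in OE-LECs and lay just under the line, with Ifih1, while Rsad2 at 3.33-fold lay just above it. More than 2-fold higher in OE-LECs were 20 of the 39 genes, against 4.28% of all genes. The ADP-ribosylation genes Parp9, Parp12, Parp14 and Dtx3l ranged from 0.93 to 1.35 on the log2 scale, and Parp9 and Dtx3l overlap on opposite strands, so that reads of the overlap cannot be told apart where strand was not used. The membrane proteins Bst2 (tetherin, which holds budding virus at the cell surface) and Ifitm3 (which blocks virus entry) were the most abundant per length, at 748 and 1089 CPM per kb of exon in OE-LECs and 418 and 770 in Cont LECs. Their log2 ratios were 0.86 (interval 0.82 to 0.89) and 0.52 (interval 0.49 to 0.55). The RNA-editing gene Adar had 0.45 (interval 0.39 to 0.51) and the DNA exonuclease gene Trex1 had 0.71 (interval 0.43 to 1.0).

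In OE-LECs 37 of the 39 genes were higher and 2 were lower. The interval lay above 0 for 35 genes, below 0 for 1 and across 0 for 3 (Zbp1, Mx1 and Epsti1). Of all genes with a read, 19.6% had an interval above 0 and 17.4% below, and of those with at least 100 normalized counts 27.8% and 24.5%. The gene with an interval below 0 was Ifi27, with 3254 and 2380 reads (log2 ratio -0.68, interval -0.76 to -0.61). Ifi27 lies 1927 bases from Ifi27l2a on chromosome 12, and Ifi27l2a went the other way in this pair, with 231 and 467 reads (0.78, interval 0.55 to 1.02). Mx1 and Epsti1 had 3 reads or fewer in both libraries of the pair. By role, the median log2 ratio in OE-LECs was 0.92 for the sensors, 0.75 for the transcription factors and 1.16 for the effectors, and within the effectors it was highest for the direct antiviral genes at 1.40. The summed level of the 39 genes was 2798 CPM in Cont LECs against 5291 CPM in OE-LECs, that is 0.280% and 0.529% of all reads. In bulk RNA a change in the share of cells that express a gene and a change of RNA per cell cannot be told apart.

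**Figure D3:**
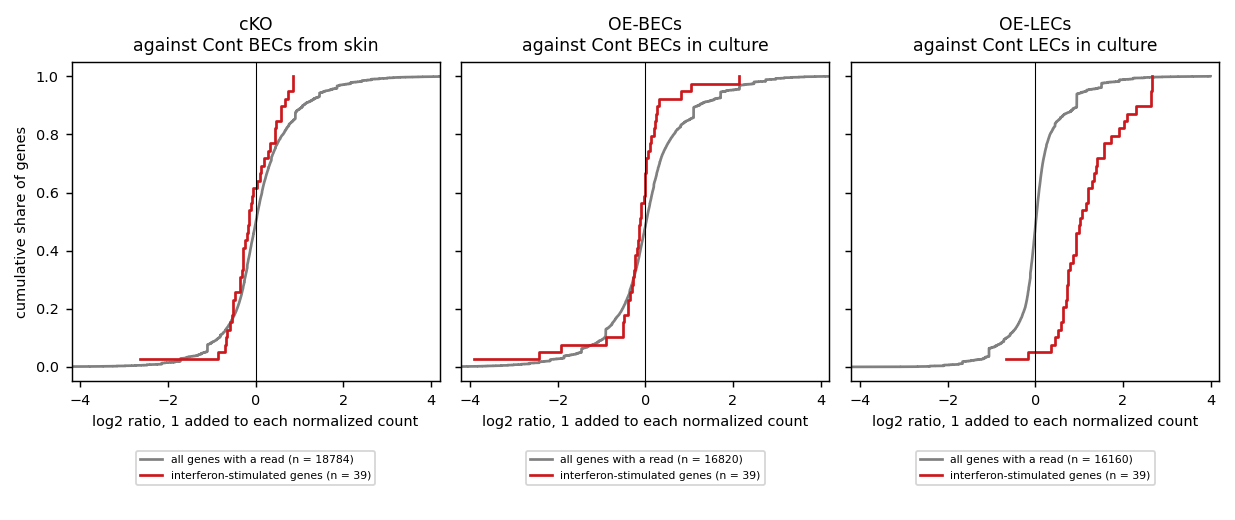
Cumulative share of genes (y axis) below each log2 ratio (x axis, 1 added to each normalized count), for the 39 interferon-stimulated genes in red and for all genes with a read in grey, in the 3 comparisons. In OE-LECs the red curve lies to the right of the grey one, with medians of 1.02 and 0.01, and in the other pairs the medians are -0.12 against 0.02 and -0.14 against 0.01.

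In OE-BECs 13 genes of the list were higher and 26 lower than in cultured Cont BECs, and 4 passed the cutoff. Ifi27l2a, an interferon-inducible gene of unsettled function, had 873 reads in Cont BECs against 124 in OE-BECs (log2 ratio -2.43, interval -2.72 to -2.16). Mx1, an antiviral GTPase gene, had 16 and 0 reads, at least 4.09-fold lower against the floor of 3 reads, and Zbp1 is given above. Epsti1 had 0 and 3 reads, both at or under the floor, so its call as upregulated rests on 3 reads and no fold is given. Intervals lay above 0 for 7 genes (Irf7, Usp18, Rsad2, Cmpk2, Samd9l, Parp14 and Trex1), below 0 for 20 and across 0 for 12, where 23.2% of all genes lay above and 24.2% below (30.6% and 35.1% of those with at least 100 normalized counts). Apart from the called genes, the lowest ratio was that of Uba7 (-0.91, interval -1.05 to -0.77) and the highest that of Trex1 (1.05, interval 0.59 to 1.52), with 65 and 103 reads. The split of higher and lower genes moved with the scaling, from 11 and 28 with total counts to 17 and 22 with size factors of the 4 cultured libraries. The summed level was 3889 CPM in Cont BECs against 3453 CPM in OE-BECs, and reads of the ribosomal RNA gene Rn45s made up 5.91% and 10.9% of the libraries. The 8 blood endothelial markers were all lower in OE-BECs, with sums of 6603 and 4093 CPM, and 7 of the 8 were lower in OE-LECs, with sums of 5132 and 4749 CPM. The part of the ribosomal reads and of these markers in the ratios was not tested.

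The log2 ratio in OE-LECs was then set against that in OE-BECs, 2 pairs that share no library. The difference, OE-LECs minus OE-BECs, was above 0 for 36 of the 39 genes, with a median of 1.27, where 51.2% of 17820 genes were above 0 and the median was 0.02. Of the 37 genes over the floor of 3 reads in all 4 libraries, the interval of the difference, here a normal approximation from the 4 counts, lay above 0 for 35, where 28.3% of 12342 genes lay above 0 and 22.8% below. It was below 0 for Ifi27 (-0.29, interval -0.49 to -0.10) and spanned 0 for Trex1 (-0.33, interval -0.86 to 0.19). Ifi27l2a (3.22, interval 2.86 to 3.57), Ifit1 (3.14, interval 2.94 to 3.34) and Zbp1 (3.13, interval 1.23 to 5.03) had the largest differences. For 17 genes the interval was above 0 in OE-LECs and below 0 in OE-BECs, and for 7 it was above 0 in both. Of all genes with a read in both pairs 4.25% showed the first pattern and 9.21% the second, and of those with at least 100 normalized counts in both pairs, which 36 genes of the list reached, 6.28% and 13.1%. The intervals hold counting error only, and with 1 library per condition the difference itself could not be tested against replicates.

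**Figure D4:**
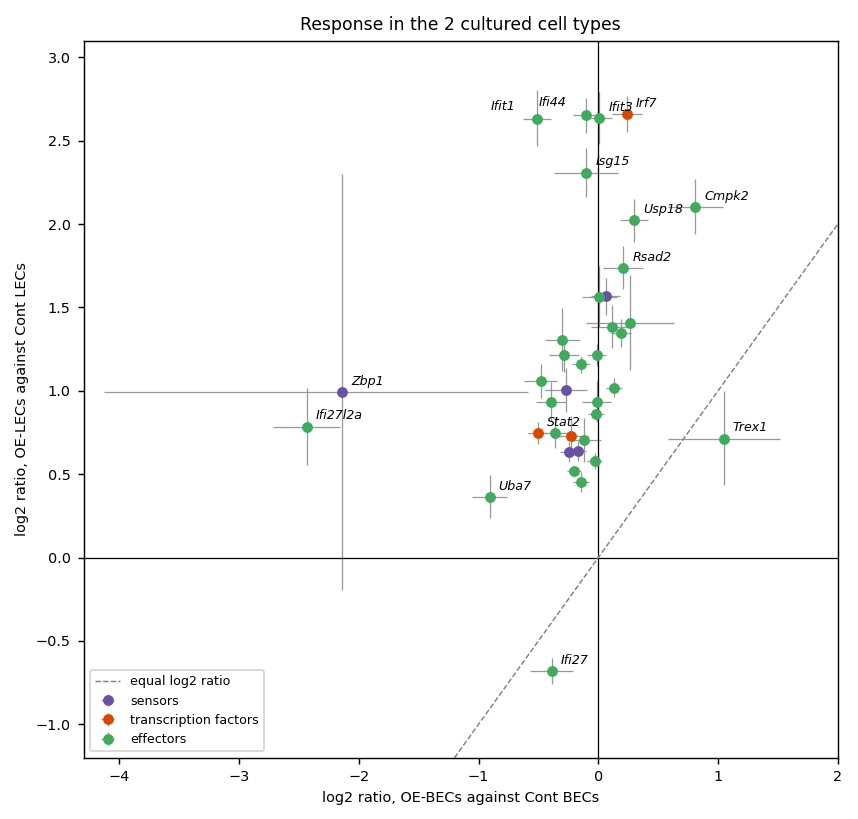
Log2 ratio in OE-LECs (y axis) against that in OE-BECs (x axis) for the interferon-stimulated genes. Bars are 95% counting intervals and the dashed line marks equal ratios. Of the 37 genes with reads in all 4 libraries, 35 lie above that line, and Irf7, Ifi44, Ifit1 and Ifit3 lie at 2.63 to 2.66 on the y axis with ratios between -0.51 and 0.24 on the x axis.

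The controls themselves differed. In Cont LECs 33 of 38 genes with reads had a lower CPM than in cultured Cont BECs, with a median log2 CPM ratio of -0.78, where all genes had 0.05. By a 3-fold difference with at least 1 CPM in the higher library, 8 genes were lower (Ifi27l2a, Mx2, Ifit2, Ifit3, Ifit1, Zbp1, Ifi44 and Usp18), against 4.61% of all genes, and 1 was higher (Ifi27), against 2.5%. Of the 8 genes upregulated in OE-LECs, Usp18, Ifit1, Ifit3 and Ifi44 were thus among those lower in Cont LECs than in Cont BECs. This comparison uses the same Cont libraries as the OE ratios, so the values stand side by side and neither supports the other. Per length, Isg15 was 23.0 CPM per kb of exon in Cont LECs against 20.7 in cultured Cont BECs, and Irf7 was 7.77 and 16.6.

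The level of the list was lower in skin than in culture. The summed level was 1172 CPM in Cont BECs from skin and 1064 CPM in the library labelled cKO, and 2798 to 5291 CPM in the 4 cultured libraries. Of the 39 genes, 28 had a higher CPM in all 4 cultured libraries than in both skin libraries, as did 18.8% of all 19948 genes with a read. Mx1 and Epsti1 were lower in all 4, as were 39.5% of all genes. Between cultured and skin Cont BECs, 23 genes were more than 3-fold higher in culture (6.58% of all genes) and 2 were lower (19.8%). Between Cont LECs and skin Cont BECs, 13 were higher (8.62%) and 3 were lower (22.1%), namely Epsti1, Mx1 and Zbp1. On the CPM scale Ifit1 was 54.7-fold higher in cultured than in skin Cont BECs (interval 33.6 to 95.8), and 7.17-fold higher in Cont LECs than in skin Cont BECs (interval 4.35 to 12.7). Tissue, culture, cell line and lentivirus differ together between these libraries and cannot be told apart.

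In skin itself the library labelled cKO had 15 genes of the list higher and 24 lower than Cont, and Ifi44 passed the cutoff. Intervals lay above 0 for Ifih1, Dhx58, Ifit3, Bst2, Xaf1 and Epsti1, below 0 for 14 genes and across 0 for 19, where 19.4% of all genes lay above and 21.3% below (25.6% and 33.5% of those with at least 100 normalized counts). Epsti1 had 83 and 197 reads (log2 ratio 0.87, interval 0.49 to 1.26) and Bst2 had 114 and 222 (0.58, interval 0.25 to 0.92). Markers of other cells moved in this pair. The 12 macrophage markers on the list were all higher in the library labelled cKO, with a sum of 3859 CPM in Cont against 6208 CPM in cKO and none at 0, although F4/80(-) CD45(-) cells were taken. The 8 blood endothelial markers were all lower, with sums of 5955 and 3613 CPM. Of the 4 keratinocyte markers 3 were higher and 1 lower, with sums of 65.6 and 105 CPM. Of the 4 fibroblast and pericyte markers 1 was higher and 3 lower, with sums of 757 and 568 CPM. Of the 6 lymphocyte and plasmacytoid dendritic cell markers 3 were higher and 3 lower, with sums of 10.9 and 10.4 CPM. The lymphatic markers also moved, 2 of 6 higher and 4 lower. The part of these markers in the skin ratios was not tested. In the 4 cultured libraries the macrophage markers Adgre1, C1qa, C1qb, C1qc and Marco had 0 reads and the 12 markers summed to 34.6 to 94.7 CPM.

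Upstream of the list, 42 other genes of the pathway were counted, of which 33 had a read in the LEC pair. Ifnb1 and Nlrc5 were called up there and 0 down, where 2.38% of all genes were called up and 1.79% down, and the median log2 ratio was 0.14. Nlrc5, a regulator of MHC class I genes, had 40 and 184 reads (1.97, interval 1.47 to 2.50). Ifnb1 had 1 read in Cont LECs against 5 in OE-LECs, with an interval of -1.07 to 7.65 that spans 0, and 0 in the other 4 libraries. Of the other interferons listed, Ifna1, Ifna2, Ifna4, Ifnl2, Ifnl3 and Ifng had 0 reads in all 6 libraries. Ifna5 had 1 read, in OE-BECs. Ifnk had 2 and 7 reads in the skin pair (log2 ratio 1.43, interval -0.96 to 4.73) and 0 in culture. Ifne, an interferon epsilon gene, was read in culture, with 317 and 67 reads in the BEC pair (-1.86) and 954 and 558 in the LEC pair (-1.0).

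The receptor genes had log2 ratios near 0 in LECs. Ifnar1 had 3882 and 4257 reads (-0.10, interval -0.16 to -0.03) and Ifnar2 1386 and 1588 reads (-0.03, interval -0.14 to 0.07) in the LEC pair, and Ifnar1 had 2142 and 1277 (-0.36) in the cultured BEC pair. Irf1, a factor related to Irf7, had 464 and 625 reads in the LEC pair (0.20) and was downregulated in the library labelled cKO, with 1116 and 429 reads (-1.76). In OE-BECs 0 of 34 pathway genes with a read were called up and 1 down (Ifne), where 7.05% and 4.63% of all genes were. In the library labelled cKO 1 of 33 was called up (Nlrc5) and 2 down (Irf1 and Socs3), where 4.4% and 2.05% of all genes were.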

How the data were processed

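Libraries were prepared by the authors with the ScriptSeq v2 kit. Reads were adapter-trimmed (skewer), mapped to mm10 (STAR) and assigned to genes (VERSE), and whether strand was used is not given in the sources used here. The authors deposited raw read counts for 24421 genes, whole numbers not normalized. Samples were grouped by the labels, 1 library per condition. From the counts, each pair of libraries was scaled by DESeq2 (version 1.42.0, run in R 4.3.3) with its median of ratios, and CPM with the total counts. Intervals and lists were computed with Python 3.11.15, numpy 2.4.6, scipy 1.17.1 and pandas 2.3.3, and figures with matplotlib 3.10.9. A count of 3 reads was taken as the floor. Shares of called genes are over all genes with a read in the pair, with no filter on low counts. Positions and exon lengths came from GENCODE M21 (GRCm38, the assembly of mm10), and promoter windows from RefSeq GRCm38.p6. Values were given in full for the sensors, the transcription factors and every gene of the list called whose higher library reached 100 normalized counts. A few others were named after their values were seen. The genes and lists were chosen with earlier results of these data known. On simulated counts for 24421 genes, of which 200 were changed 8-fold, the cutoff called 200 of the 200 in each comparison. A change of 8-fold lies far past the 3-fold line, so this outcome checks only that the cutoff ran in the right direction. It gives no rate of calls among unchanged genes. Nor does it bear on changes near 3-fold or on calls from few reads, such as Mx1 and Epsti1 in OE-BECs. Alternatives were size factors of all 6 or of the 4 cultured libraries, edgeR 4.0.16 TMM scaling, scaling by total counts alone, a minimum of 20 or that of the other experiment, a fold of 2, other pseudocounts, and leaving out scarce genes or genes with related copies.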

Additional observations from a re-analysis of the deposited data

Results flagged for a closer look

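In 17 of the 39 interferon-stimulated genes the log2 ratio lay above 0 in OE-LECs and below 0 in OE-BECs, each beyond the counting interval, a pattern shown by 4.25% of all genes with a read in both pairs and by 6.28% of those with at least 100 normalized counts in both. With 1 library per condition the difference was not tested. The log2 ratio in OE-LECs minus that in OE-BECs was 3.22 for Ifi27l2a, 3.14 for Ifit1, 2.76 for Ifi44, 1.61 for Ifit2, 1.54 for Parp9, 1.50 for Rtp4. It was 1.33 for Dtx3l, 1.31 for Xaf1, 1.27 for Dhx58, 1.27 for Uba7, 1.25 for Stat2, 1.11 for Ifi35. It was 0.96 for Irf9, 0.88 for Eif2ak2, 0.81 for Ddx58, 0.72 for Ifitm3 and 0.60 for Adar. These genes include the sensors Ddx58, Dhx58 and Eif2ak2, the factors Stat2 and Irf9, and the activating enzyme of Isg15 attachment, Uba7. Of the 8 genes upregulated in OE-LECs, Ifit1 and Ifi44 are among the 17, and Irf7, Usp18, Rsad2 and Cmpk2 had intervals above 0 in both cell types. The 7 intervals of the list above 0 in OE-BECs became 6 with total counts. Of these 7, the interval of Rsad2 began nearest to 0, at 0.04. In OE-BECs the split of signs moved with the scaling, and the 4 genes that changed sign there under size factors of the 4 cultured libraries (Trim25, Bst2, Parp12 and Trim30a) are not among the 17. With those size factors, or with size factors of all 6 libraries, Ifi44 left the 17, which made 16, and with total counts Herc6 and Trim25 joined them, which made 19.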

How the results depend on the processing

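The count of 8 interferon-stimulated genes upregulated in OE-LECs stayed 8 under the other size factors, TMM, total counts, both other minimums and a pseudocount of 1, was 6 without genes that have related copies, and became 20 with a fold of more than 2. The count of 1 upregulated in OE-BECs became 0 with a minimum of 20, 0 with a minimum of 5, and 2 with a fold of more than 2. The count of 3 downregulated in OE-BECs became 1 without genes that have related copies, where Zbp1 was left. The median log2 CPM ratio of Cont LECs against Cont BECs was -0.78 and became -0.96 with size factors of the 4 cultured libraries. The other 76 values of counts and medians moved by no more than 1.5-fold (counts) or by less than the typical counting error of a gene (medians), and none reversed. No paired analysis was possible because each condition has 1 library, and no library could be left out for the same reason. At 9 reads in Cont LECs, as for Zbp1, a 2-fold difference was within counting error.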

Other observations

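Related genes outside the list were followed because they share sequence with it. They were chosen by name after the table had been read. Trim30d, a relative of Trim30a, had 34 reads in Cont LECs against 279 in OE-LECs (log2 ratio 2.81, interval 2.29 to 3.36), and 144 and 159 in the cultured BEC pair (0.53, interval 0.19 to 0.86). Ifit1bl2, a relative of Ifit1, had 6 and 58 reads in the LEC pair (3.04, interval 1.83 to 4.55) and 34 and 14 in the cultured BEC pair (-0.90, interval -1.91 to 0.04). Ifi27l2b, a relative of Ifi27l2a, had 69 and 174 reads in the LEC pair (1.10, interval 0.69 to 1.53) and 895 and 467 in the cultured BEC pair (-0.56, interval -0.72 to -0.39). Ifitm2, a relative of Ifitm3, had 6913 and 7309 reads in the LEC pair (-0.15, interval -0.20 to -0.10), below 0 where Ifitm3 was above it. Reads of such relatives can be split between copies in counting, so these values are uncertain.

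Tlr7, a sensor of single-stranded RNA that is not on the list, stood at 31.8 CPM in Cont BECs from skin and 56.9 CPM in the library labelled cKO, and under 0.1 CPM in each cultured library. Epsti1 stood at 9.36 and 17.8 CPM in skin and had 3 reads or fewer in each cultured library.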
